A study of Glycine max with 5 samples.

Results

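The sites described here are pseudouridine (Ψ) sites in soybean shoot mRNA that have C on both sides (CΨC) but do not lie in the 5-nucleotide context GCΨCT. They were selected from the deposited list of Ψ sites by sequence alone: C directly before and directly after the site, leaving out sites with G at −2 and T at +2. Positions are counted from the site, negative towards the 5′ end, and T is written for U as in the list. The rule found 276 of 1347 listed sites (20.5%), and these 276 are called member sites below. GCΨCT itself accounted for 235 of the 511 CΨC sites. The remaining 836 listed sites did not have C on both sides.

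The study mapped Ψ in plant mRNA by bisulfite-induced deletion sequencing (BID-seq). For soybean, all libraries were made from poly(A)-enriched RNA of shoots of the genotype W82, with 2 input libraries and 3 libraries labelled as treated. The replicates were combined into 1 value per site before deposit, so there was no value per library and no replicate spread for any site. Reads copied from 1 molecule by PCR are not independent, and the Wilson intervals below account for counting error alone. Intervals of the least-squares fits come from the spread between sites.

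Ψ is an isomer of uridine in which the base is attached to the sugar through carbon instead of nitrogen. Pseudouridine synthases install it, either as stand-alone enzymes that read the sequence and fold of the RNA or as a complex that finds its target through a guide RNA. In BID-seq, bisulfite forms an adduct with Ψ, reverse transcriptase skips the modified base, and the site is read as a deletion, or gap, in part of the reads. In a CΨC context the modified U stands alone between C residues, so the gap cannot be shifted to a neighbouring U during alignment. Soybean carries ancient whole-genome duplications, and many of its transcripts therefore have a near-identical relative on another chromosome.

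To show what the members look like, the site with the most gapped reads is given for each of the 8 contexts with at least 10 members. The windows are 21 nucleotides long, run 5′ to 3′ on the strand of the transcript (coordinates on Glycine_max_v2.1), and have the 5 nucleotides from −2 to +2 in capitals with the modified U in their middle.
GCΨCG, chr5:32150147-32150167, plus strand: tgggccatGCTCGgggccttg
TCΨCT, chr12:37696496-37696516, plus strand: tactacctTCTCTagctagat
CCΨCT, chr16:30382138-30382158, minus strand: ccttgccaCCTCTgccctcgt
GCΨCC, chr3:39767922-39767942, minus strand: gaattattGCTCCcatcgcca
TCΨCC, chr4:12650369-12650389, plus strand: cactggccTCTCCctcttctt
ACΨCT, chr15:31268243-31268263, minus strand: caggaggcACTCTggacgacc
TCΨCG, chr11:3587757-3587777, plus strand: cgcgcctcTCTCGaccgatct
CCΨCC, chr7:8285923-8285943, plus strand: aatccgctCCTCCggcgatga

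The sites printed above had between 72 and 309 gapped reads. The TCΨCC site on chromosome 4 had the most of any member, with 309 gapped of 5124 reads, a gap ratio of 6.03% (95% Wilson interval 5.41 to 6.72%). The gap ratio is the share of reads at a site that carry the gap, before calibration. By calibration, the authors turned it into the Ψ fraction, an estimate of the share of transcripts modified at the site, which was 19.6% there. The GCΨCC site on chromosome 3 had 306 gapped of 4012 reads and the GCΨCG site on chromosome 5 had 292 of 4896. Their gap ratios were 7.63% and 5.96%, while their Ψ fractions stood in the opposite order at 22.3% and 28.6%. The smallest gap ratio among the 8 was 3.00%, at the TCΨCT site on chromosome 12, with a Ψ fraction of 11.4%.

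The depth of a member, in reads, was 592 at the median, 5 at the lowest and 5289 at the highest, and the middle 50% of members had 288 to 1268. Together they held 14691 gapped reads of 275040, and a single member rested on 4 to 309 gapped reads with a median of 35. The gap ratio ranged from 2.87 to 100% with a median of 6.30%. The Ψ fraction ranged from 8.99 to 100%, with a median of 23.3% and a mean of 27.1% ± 14.7 (SD over sites, n = 276). A low fraction, under 20%, was listed at 97 members (35.1%, Wilson interval 29.8 to 40.9%), and 161 members (58.3%) lay between 20 and 50%. A high fraction, above 50%, was listed at 18 members (6.52%, 4.16 to 10.1%), of which 12 had 50 reads or fewer and 3 had at least 200. Most members were therefore sites of low or intermediate fraction that were well covered, and the few high fractions stood mainly on few reads.

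Members lay on all 20 chromosomes, with 130 members on the plus and 146 on the minus strand. Chromosome 13 held the most, 25 of its 86 listed sites, and chromosome 1 the fewest, 4 of its 41. The members' share of a chromosome's listed sites ranged from 9.76% (3.86 to 22.5%) on chromosome 1 to 31.5% (20.7 to 44.7%) on chromosome 12.

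The bases at −2 and +2 were uneven among the members. The rule itself takes away sites with both G at −2 and T at +2, so these shares are a description with no test. G stood at −2 in 117 members (42.4%, 36.7 to 48.3%), T in 83, C in 50 and A in 26. At +2, G was found in 106 members (38.4%, 32.9 to 44.3%), T in 90, C in 78 and A in only 2. The share of A at +2 was 0.725% (0.199 to 2.60%) in members and 17.3% in the sites without C on both sides, at a position that the rule leaves free for A. The contexts GCΨCA and CCΨCA were not listed, and by a limit of 3 counts, 0 of 276 members allows a share of up to 1.09%.

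Of the 15 contexts that the rule allows, 13 were seen, and 3 of them held 164 of the 276 members. GCΨCG was the most frequent with 87 members (31.5%, 26.3 to 37.2%). It differs from GCΨCT only in the base at +2. TCΨCT followed with 40 members (14.5%) and CCΨCT with 37 (13.4%), which differ from GCΨCT only in the base at −2. GCΨCC had 30 members, TCΨCC 29, ACΨCT 13, TCΨCG 13 and CCΨCC 11. Each of the 4 most frequent contexts thus kept 1 of the bases that GCΨCT has at −2 and +2. Over all 511 CΨC sites, G stood at −2 in 87 of 106 sites with G at +2 (82.1%, 73.7 to 88.2%) and in 235 of 325 sites with T at +2 (72.3%, 67.2 to 76.9%), but in 30 of 78 sites with C at +2 (38.5%, 28.4 to 49.6%).

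The strongest feature outside the selected bases was a G at +3. It was present in 197 of 276 members (71.4%, 65.8 to 76.4%), against 215 of 836 sites without C on both sides (25.7%). The odds were 7.20 times higher in members (two-sided Fisher's exact test, adjusted p = 1.39e-39 with Benjamini-Hochberg adjustment over 64 base and position tests). At GCΨCT sites the share was 81.7% (192 of 235), and the difference of −10.3 percentage points from the members just passed the threshold (Fisher's exact test, adjusted p = 0.0436). In Fisher's exact test that call was lost with near-copy windows counted once (adjusted p = 0.0893), with at least 50 or at least 200 reads, and with a minimum Ψ fraction of 20%. The windows of all 1347 listed sites, near copies included, held 196 other C-T-C triplets in their flanks. Of these, 57 (29.1%, 23.2 to 35.8%) had G at the same distance after the T. Triplets shortly before the site were counted too. For these the scored position could be the listed U, which is never G, or a selected base. The share is therefore only a rough background.

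G at +3 went with the base at +2. It was found in 77 of 90 members with T at +2 (85.6%, 76.8 to 91.4%), in 83 of 106 with G at +2 (78.3%, 69.5 to 85.1%) and in 36 of 78 with C at +2 (46.2%, 35.5 to 57.1%). By context the share was 90% in TCΨCT (36 of 40), 87.4% in GCΨCG (76 of 87), 84.6% in ACΨCT (11 of 13) and 81.1% in CCΨCT (30 of 37). In GCΨCC it was 46.7% (14 of 30), in TCΨCC 41.4% (12 of 29) and in TCΨCG 23.1% (3 of 13). Among the 8 contexts with at least 10 members, GCΨCG and the 3 with T at +2 thus had G at +3 in 81.1 to 90% of their sites, and the other 4 in 23.1 to 54.5%. The 4 six-nucleotide contexts GCΨCGG, TCΨCTG, CCΨCTG and ACΨCTG, grouped after these shares had been seen, covered 153 members (55.4%, 49.5 to 61.2%). In turn, 79 members had no G at +3, 17 of them in TCΨCC and 16 in GCΨCC.

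**Figure D1:**
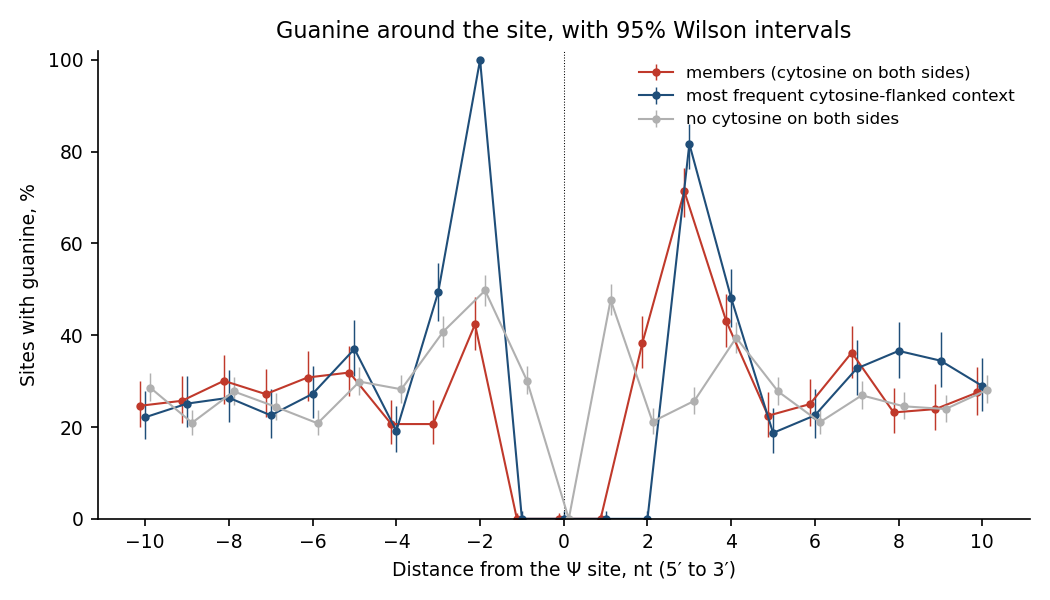
Share of sites with guanine (y axis, %) at each distance from the Ψ site (x axis, nucleotides, 5′ to 3′) in the 276 members (red), the 235 sites of the most frequent cytosine-flanked context, GCΨCT (blue), and the 836 sites without C on both sides (grey). Bars are 95% Wilson intervals. Outside the selected bases, members and GCΨCT sites both peak at +3 (71.4 and 81.7%), while at −3 members stood at 20.7% against 49.4%. The values at −2 to +2 are set in whole or in part by the selection.

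Members and GCΨCT sites differed in 10 of the 64 tests of single bases in the outer 16 positions (15.6% called). The largest differences lay at −3, directly before the selected bases. G was found there in 57 members (20.7%) and in 116 GCΨCT sites (49.4%; Fisher's exact test, adjusted p = 5.74e-10), whereas C was found in 73 members (26.4%) and in 17 GCΨCT sites (7.23%; adjusted p = 1.87e-07). T at −3 was also more frequent in members, at 27.9% against 13.6% (Fisher's exact test, adjusted p = 0.00113). The members with G at −2, the base that GCΨCT has there, were not alike. Among the 87 GCΨCG members, 6 had G at −3 (6.90%, 3.20 to 14.2%) and 27 had C (31.0%, 22.3 to 41.4%). Among the 30 GCΨCC members, 10 had G (33.3%, 19.2 to 51.2%) and 4 had C (13.3%, 5.31 to 29.7%). This split by context was chosen after the values were seen and was not tested.

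On the 3′ side, A at +3 was found in 21 members (7.61%) and in 0 of 235 GCΨCT sites, which allows a share of up to 1.28% by a limit of 3 counts (Fisher's exact test, adjusted p = 6.54e-05). C at +5 was found in 97 members (35.1%) against 17.9% (Fisher's exact test, adjusted p = 1.76e-04), and A at +5 in 20.3% against 33.2% (adjusted p = 0.0115). In Fisher's exact test the calls for A at +3 and for both bases at +5 were lost with a minimum Ψ fraction of 20% (adjusted p = 0.265, 0.370 and 0.583). T at +4 passed only narrowly, at 10.1% against 3.83% (Fisher's exact test, adjusted p = 0.0429). It missed the threshold under each alternative that gave a value, with adjusted p from 0.125 to 0.495. At +8, C was more frequent (28.3% against 16.6%, Fisher's exact test, adjusted p = 0.0169) and G less frequent in members (23.2% against 36.6%, adjusted p = 0.0115). The differences in G and C at −3 were the largest in percentage points, and they kept their call under each alternative that gave a value.

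Against the 836 sites without C on both sides, 16 of the 64 tests passed (25% called). Besides G at +3, A at +3 was less frequent in members (7.61% against 36.0%; Fisher's exact test, adjusted p = 3.65e-21). That difference was −28.4 points, and −14.2 without sites that have another U between −2 and +2 (Fisher's exact test, adjusted p = 0.0101). G at −3 was less frequent too, at 20.7% against 40.8% (adjusted p = 1.23e-08), a difference of −20.1 points that shrank to −2.37 points when those sites were left out (Fisher's exact test, adjusted p = 0.783). A at −4 was more frequent, at 35.9% against 24.0% (Fisher's exact test, adjusted p = 0.00155), and T at −6 less frequent, at 19.9% against 34.6% (adjusted p = 5.31e-05). Both calls were lost without sites that have such a U, a setting that left 143 members and 217 others (Fisher's exact test, adjusted p = 0.242 and 0.219). The differences themselves went from 11.8 to 9.14 points for A at −4 and from −14.6 to −9.25 points for T at −6.

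Over the outer 16 positions together, members held 52.9% ± 12.5 G or C (SD over sites, n = 276). This was 4.80 percentage points (2.95 to 6.66) more than the sites without C on both sides, which had 48.0% (least squares with robust errors, n = 276 and n = 836 sites, adjusted p = 3.86e-06). The difference from GCΨCT sites, at 52.0%, was 0.885 points (−1.17 to 2.94) and did not pass (same fit, n = 276 and n = 235, adjusted p = 0.484). Within this equal total, members had 3.91 points more C and 3.02 points less G than GCΨCT sites (same fit, n = 276 and n = 235, adjusted p = 5.32e-04 and 0.00498).

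The site lay in an unbroken run of at least 9 pyrimidines in 12 members, and in 92 the run was only the 3 nucleotides of CΨC itself. The median gap ratio was 6.98% in the former and 6.05% in the latter, at median depths of 545 and 668 reads. The longest run filled a whole window of 21 nucleotides, in a C-T repeat on the minus strand of chromosome 4. Its 2 listed sites are shown because they are the only members within 50 nucleotides of each other.
Repeat, chr4:14447908-14447928, minus strand: tctctctcTCTCTctctcttc
Repeat, chr4:14447910-14447930, minus strand: cctctctcTCTCTctctctct
Both sites had 8 gapped of 15 reads, a gap ratio of 53.3% (30.1 to 75.2%) and a Ψ fraction of 85.3%. The positions are 2 nucleotides apart, and the list does not tell whether they rest on the same reads.

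Gap ratios of members fell with depth. Across the 276 members, Spearman's rho between reads and gap ratio was −0.83, and between reads and Ψ fraction −0.70. These describe sites of 1 combined list that share libraries and a site filter, and carry no test. The 7 members with 20 reads or fewer had gap ratios from 29.4 to 100%, and the 89 members with more than 1000 reads from 2.87 to 9.56%. The 3 highest Ψ fractions of all members were 100%, 99.1% and 96.1%, and they stood on 6 of 6 reads (chromosome 18, position 6498252), 17 of 20 reads (chromosome 6, position 48130423) and 4 of 5 reads (chromosome 13, position 37703831). The 3 lowest, 8.99%, 9.31% and 10.9%, stood on 2462, 2404 and 2723 reads, at position 47566418 of chromosome 8, position 32460794 of chromosome 13 and position 20336923 of chromosome 15.

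**Figure D2:**
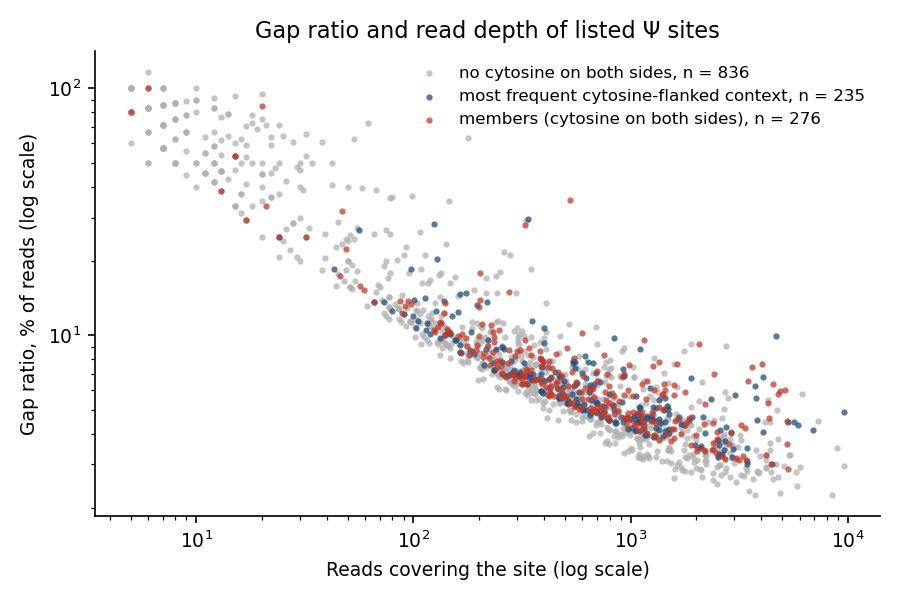
Gap ratio (y axis, % of reads, log scale) against reads covering the site (x axis, log scale), 1 point per listed site, for the 276 members (red), the 235 GCΨCT sites (blue) and the 836 sites without C on both sides (grey). Gap ratios fell with depth in each class, and 13 members against 200 sites of the grey class had 50 reads or fewer.

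Members were covered more deeply than the sites without C on both sides. Their geometric mean depth was 2.55-fold higher (95% interval 2.099 to 3.10; least squares on log10 reads with robust errors over all sites, n = 276 and n = 836, adjusted p = 2.91e-20 with Benjamini-Hochberg adjustment over 6 class differences). Only 13 members (4.71%, 2.77 to 7.89%) had 50 reads or fewer, against 200 of the 836 other sites (23.9%, 21.2 to 26.9%). Among sites with at least 200 reads, the difference in log10 reads was −0.01 (same fit, n = 235 members and n = 498 others, adjusted p = 0.670). Members and GCΨCT sites did not differ detectably, with a depth ratio of 0.876 (0.717 to 1.07; same fit, n = 276 and n = 235, adjusted p = 0.288). Reads at a site depend on the abundance of its transcript, which was not analysed here.

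At matched depth the gap ratio of the members was close to that of the other classes. It was 1.02-fold that of GCΨCT sites (0.980 to 1.07; least squares on log2 gap ratio with a spline of log10 depth, n = 276 and n = 235, adjusted p = 0.358) and 1.07-fold that of the sites without C on both sides (1.03 to 1.11; same fit, adjusted p = 3.67e-04). The small excess over the latter was no longer present with a minimum Ψ fraction of 20% (same fit, n = 179 members, adjusted p = 0.598), and it was larger in a binomial regression of the gapped reads (0.24 on the log2 scale, against 0.10). Such a minimum falls at different gap ratios in different contexts of the members. Between 201 and 500 reads, members had a median gap ratio of 7.16% (n = 83), against 6.93% at GCΨCT sites and 7.27% at the others of that depth. Above 1000 reads the medians were 4.40% (n = 89), 4.44% and 3.65%. All classes passed the same site filter. The lowest listed gap ratios at 201 to 500 reads were 5.60% in members, 5.57% at GCΨCT sites and 4.54% at the others. How far that filter sets the likeness at matched depth was not tested.

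After calibration, members and GCΨCT sites separated. The Ψ fraction of the members was 4.85 percentage points higher at matched depth (3.68 to 6.01; least squares with a depth spline, n = 276 and n = 235, adjusted p = 1.00e-15). Without the 87 GCΨCG members, a setting chosen after the data had been seen, the difference was 2.36 points (same fit, n = 189 members, adjusted p = 7.76e-04). The rule selects on the bases at −2 and +2, and the fraction listed for a given gap ratio differed with these bases. A gap ratio of 5% was listed as 24.8% in GCΨCG and as 15.4% in GCΨCT. These p-values therefore cannot tell modification apart from calibration, and the share due to calibration was not tested. Against the sites without C on both sides the difference was 0.601 points (−0.680 to 1.88; same fit, n = 276 and n = 836, adjusted p = 0.358). In the class of 201 to 500 reads the median fraction was 27.3% in members, 21.2% at GCΨCT sites and 24.5% at the others. Above 1000 reads it was 17.8%, 13.6% and 13.6%. The difference between members and the sites without C on both sides depended on which sites entered. It was 1.92 points with at least 200 reads (same fit, n = 235 members, adjusted p = 0.00612) and −3.48 points with a minimum fraction of 20%, which selects on the outcome (adjusted p = 1.29e-04). Without sites that have another U from −2 to +2 it was 4.56 points (same fit, n = 143 members and n = 217 others, adjusted p = 1.37e-06). That setting also removed every member with T at −2 or +2, and 87 of the 143 left were GCΨCG. Without the GCΨCG members, and with all other sites kept, the difference was −1.83 points (same fit, n = 189 members, adjusted p = 0.0166).

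**Figure D3:**
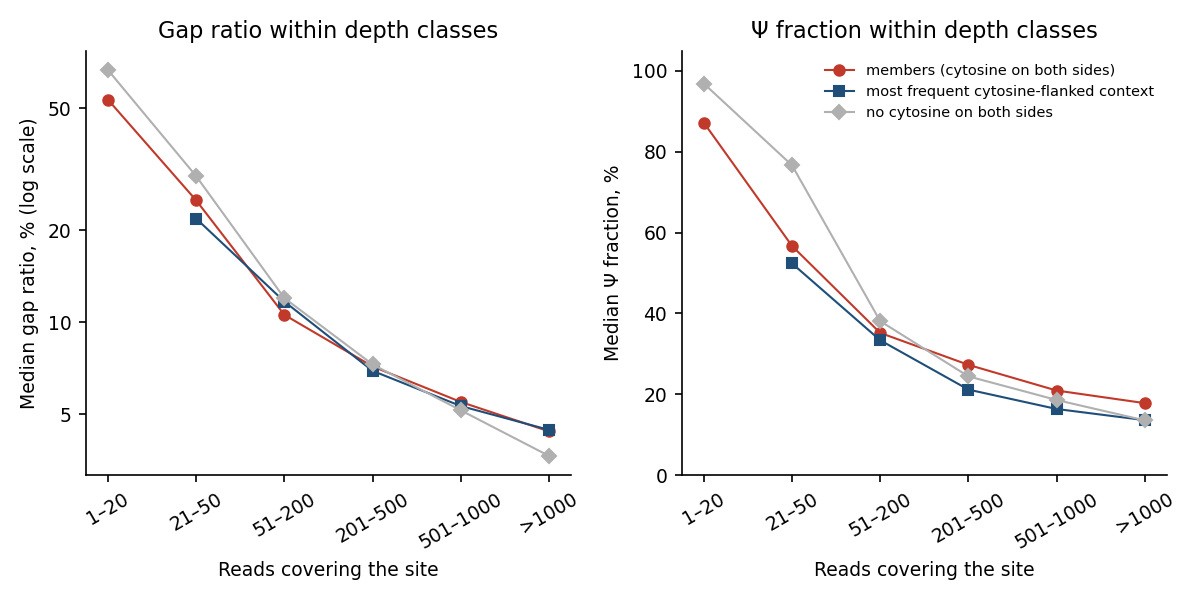
Median gap ratio (left, %, log scale) and median Ψ fraction (right, %) in 6 classes of read depth (x axis, reads covering the site) for members (red circles), GCΨCT sites (blue squares) and sites without C on both sides (grey diamonds). From 201 reads upwards the gap ratios of members and GCΨCT sites nearly coincide (7.16 and 6.93% at 201 to 500 reads), while the Ψ fractions of members lie above (27.3 and 21.2%). No GCΨCT site had 20 reads or fewer.

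The step from gap ratio to Ψ fraction differed between contexts of the members. In each of the 11 contexts with more than 1 member, sites ordered by gap ratio were in the same order by Ψ fraction. Interpolating between sites to a gap ratio of 5% gave a fraction of 24.8% for GCΨCG, 21.3% for ACΨCT, 19.3% for TCΨCG and 18.2% for TCΨCT. It was 16.6% for TCΨCC, 15.3% for GCΨCC, 14.2% for CCΨCC and 13.3% for CCΨCT, and 15.4% for GCΨCT itself. At a gap ratio of 8% the extremes were again GCΨCG with 35.6% and CCΨCT with 20.4%. Equal shares of gapped reads were thus listed as unequal Ψ fractions, depending on the bases at −2 and +2. For comparison, the quartiles of the Ψ fraction over all members were 18.6 and 31.8%.

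**Figure D4:**
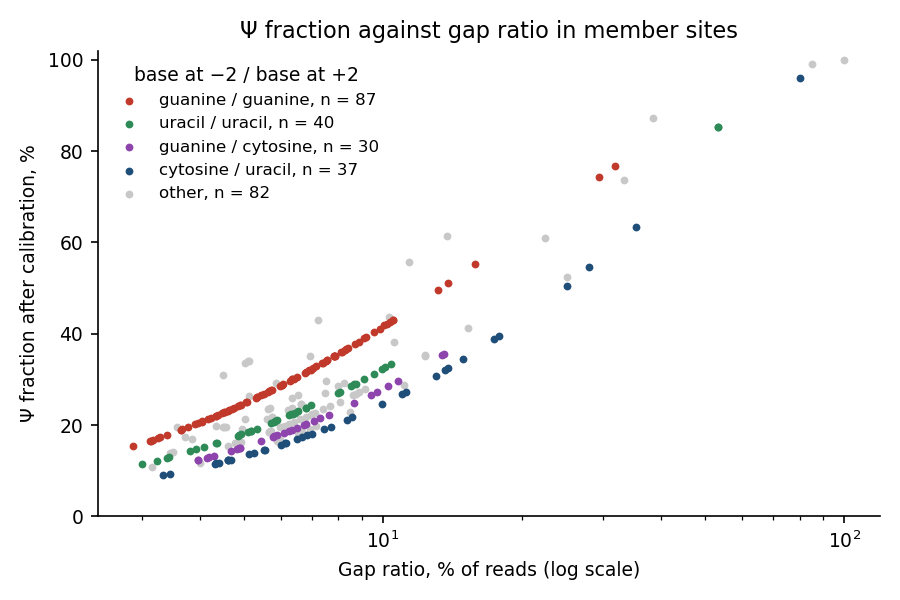
Ψ fraction after calibration (y axis, %) against gap ratio (x axis, % of reads, log scale) for the 276 members, 1 point per site, coloured by the bases at −2 and +2. Each context follows its own rising curve. At a gap ratio of 5% the curve of sites with guanine at both positions stands at 24.8% and that of sites with cytosine at −2 and uracil at +2 at 13.3%.

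Contexts were then compared in 1 fit over all listed sites, each against the mean of all sites at matched depth, in 31 contexts with at least 10 sites. For the gap ratio, 3.23% of the 31 contexts were called higher and 6.45% lower, and none of the 8 member contexts was among them (least squares with a depth spline, Benjamini-Hochberg adjustment over 31 contexts). Unadjusted p-values under 0.05 were found for 3 of the 8. GCΨCC was higher by 0.17 on the log2 scale (0.04 to 0.30; same fit, n = 30 sites, adjusted p = 0.0526), CCΨCT was higher by 0.21 (0.02 to 0.41; adjusted p = 0.110), and TCΨCT had −0.06 (−0.11 to −0.00173; adjusted p = 0.122). For GCΨCG the difference was 0.03 (−0.03 to 0.10; same fit, n = 87 sites, adjusted p = 0.526). With at least 50 reads, GCΨCC (n = 30 sites, adjusted p = 0.0349), CCΨCT (n = 34, adjusted p = 0.0359) and TCΨCT (n = 38, adjusted p = 0.0409) passed in the same fit. GCΨCC also passed with at least 200 reads, without sites that have another U from −2 to +2 and with contexts of at least 20 sites, and CCΨCT with at least 200 reads, whereas TCΨCT passed in no other setting that tested it. With near-copy windows counted once, neither GCΨCC (0.16, same fit, n = 21 sites, adjusted p = 0.221) nor CCΨCT (0.14, n = 30, adjusted p = 0.382) passed. Both also missed the threshold with a minimum fraction of 20%. GCΨCG was called lower with a minimum fraction of 20%, by −0.13 (n = 76 sites, adjusted p = 0.00612), and higher without another U, by 0.08 (n = 87, adjusted p = 0.0452). A minimum fraction cuts the contexts at different gap ratios. A gap ratio of 5% was listed as 24.8% in GCΨCG and as 13.3% in CCΨCT, and only 15 of 37 CCΨCT sites stayed in. The lower call for GCΨCG at that setting is therefore not a comparison of like sites.

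For the Ψ fraction, 16.1% of the 31 contexts were called higher and 45.2% lower than the mean, against 1 and 5 of the 8 member contexts. GCΨCG was higher by 6.25 percentage points (5.15 to 7.35; least squares with a depth spline, n = 87 sites, adjusted p = 6.29e-28). CCΨCC had −5.82 points (−8.48 to −3.17; same fit, n = 11 sites, adjusted p = 4.77e-05), CCΨCT −4.57 (adjusted p = 0.0246), GCΨCC −2.96 (adjusted p = 0.00250), TCΨCC −2.80 (adjusted p = 0.00699) and TCΨCT −2.13 (adjusted p = 8.76e-05). GCΨCT itself had −4.06 points in this fit (n = 235 sites, adjusted p = 5.59e-25), above CCΨCT and CCΨCC. ACΨCT and TCΨCG were not called, with 0.604 points (−0.703 to 1.91) and 0.907 points (−1.19 to 3.01). ACΨCT was called higher with at least 50 reads, by 1.66 points (same fit, n = 11 sites, adjusted p = 0.0166), and TCΨCG lower with a minimum fraction of 20%, at −4.26 points (n = 10, adjusted p = 6.23e-04). The minimum fraction selects on the outcome. The call for CCΨCT was lost with at least 50 reads, at −2.68 points (same fit, n = 34 sites, adjusted p = 0.182). That setting left 1136 of all 1347 sites in the fit. The CCΨCT call was also lost with at least 200 reads (same fit, n = 31, adjusted p = 0.462) and with a minimum fraction of 20% (n = 15, adjusted p = 0.370). With at least 200 reads the calls for GCΨCC (same fit, n = 26 sites, adjusted p = 0.0861) and TCΨCC (n = 23, adjusted p = 0.140) were lost. GCΨCG stayed higher under each alternative, by 1.62 points with a minimum fraction of 20% and by 4.68 to 7.12 points otherwise. With all sites in the fit, the 1 member context called above the mean was the one with the highest interpolated fraction per gap ratio, and CCΨCT and CCΨCC, with the lowest, were the furthest below. How much of these differences comes from the calibration was not tested.

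Well-covered members with high Ψ fractions were few. Among members with at least 200 reads, the 5 highest fractions were 63.4%, 54.6%, 51.2%, 43.0% and 43.0%. The 2 highest were CCΨCT sites on chromosomes 12 and 13 whose windows were identical, and 2 further members on chromosomes 6 and 12 had the same window apart from its first base, at −10. The 4 windows are shown because these copies had the highest gap ratios of all members with at least 200 reads.
CCΨCT, chr12:38814412-38814432, minus strand: taagccgtCCTCTgcttcctc
CCΨCT, chr13:37376611-37376631, plus strand: taagccgtCCTCTgcttcctc
CCΨCT, chr12:26908345-26908365, minus strand: caagccgtCCTCTgcttcctc
CCΨCT, chr6:36696070-36696090, plus strand: caagccgtCCTCTgcttcctc

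The first of these copies had 186 gapped among 525 reads, or 35.4% (31.5 to 39.6%). The second had 91 of 325 reads, or 28.0% (23.4 to 33.1%). The third had 36 of 202 reads, or 17.8% (13.2 to 23.7%), and the fourth 41 of 275, or 14.9% (11.2 to 19.6%). The copies with the same first base thus had the closer values, and the intervals of the first and the last did not overlap. The first copy differed from the fourth (Fisher's exact test on gapped reads, adjusted p = 2.18e-08 over 54 pairs) and from the third (adjusted p = 3.47e-05), and the second differed from the fourth (adjusted p = 0.00119) but not detectably from the third (adjusted p = 0.0786). All 4 stood above the median gap ratios of members of like depth, 7.16% at 201 to 500 reads and 5.48% at 501 to 1000. The other 3 sites of the list of 5 were GCΨCG sites at position 5778824 of chromosome 14 (28 of 202 reads gapped) and position 44246288 of chromosome 13 (26 of 248), and an ACΨCC site at position 44374738 of chromosome 10 (25 of 346).

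Part of the members had near copies among themselves. With at most 3 mismatches allowed in 21 nucleotides, 78 members (28.3%) had at least 1 other member as a near copy (Wilson interval 23.3 to 33.8%). The share of sites with a near copy in their own class was 28.9% at GCΨCT sites (68 of 235) and 18.1% at the sites without C on both sides (151 of 836). The 78 members formed 54 pairs in 35 groups, of which 4 groups held 3 or more members. Among these, 1 pair is the C-T repeat on chromosome 4. Its 2 windows overlap at 1 locus and are not separate copies. Of the pairs, 33 had identical windows and 47 joined different chromosomes. All 54 pairs shared the 5-nucleotide context, and none of their 29 mismatches fell at −2 or +2, whereas 25 lay at least 5 nucleotides from the site. No member had a GCΨCT site or a site without C on both sides as a near copy, and with 5 mismatches allowed there were 9 and 2 such pairs. Only copies that are themselves listed could be seen, so copies without a listed site were not counted.

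Copies were unevenly spread over the contexts. A near copy was found for 15 of 30 GCΨCC members and 31 of 87 GCΨCG members, for 12 of 40 in TCΨCT and 12 of 37 in CCΨCT, but for 0 of 29 in TCΨCC and 0 of 11 in CCΨCC. The 12 in TCΨCT include the 2 sites of the chromosome 4 repeat. The 15 in GCΨCC include the largest group, 5 members with an identical window on chromosomes 11 and 12. Members of a group are not independent, so these counts carry no test. Members with a copy had a median of 829 reads (interquartile range 388 to 1636) and members without one 486 (268 to 1071). Their median gap ratios were 6.18% and 6.39%.

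The 4 identical pairs with the most reads show how closely copies can match, and the windows are given with the position of each copy.
GCΨCC, chromosome 14 at 8616500 and chromosome 17 at 38589656: tccgcaaaGCTCCtgagggtt
GCΨCC, chromosome 3 at 39767932 and chromosome 19 at 44462650: gaattattGCTCCcatcgcca
GCΨCG, chromosome 14 at 7618090 and chromosome 17 at 39454290: acctacaaGCTCGgactgaac
TCΨCT, chromosome 3 at 32189520 and chromosome 7 at 11575903: ctgtatctTCTCTgaacgatg

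In the first pair, 289 of 4552 reads (6.35%) and 277 of 4798 reads (5.77%) were gapped. The second had 306 of 4012 (7.63%) and 226 of 3467 (6.52%). The third had 103 of 2829 (3.64%) and 117 of 2896 (4.04%), and the fourth 75 of 2185 (3.43%) and 95 of 2180 (4.36%). Within these pairs both the depth and the gap ratio were similar, and no pair differed (Fisher's exact test, adjusted p from 0.232 to 0.760). Reads that fit both copies of an identical window could be placed at either, and how the alignment treated them was not given in the sources used here, so agreement of identical windows is not a measurement made independently at 2 loci.

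The GCΨCG pair on chromosomes 14 and 17 had a second member beside it in both copies, a case chosen after the values were seen. On chromosome 14 the further site lay 90 nucleotides upstream at position 7618000, and on chromosome 17 it lay 90 nucleotides upstream at position 39454380. Both windows are printed to show that the block was listed in both copies.
GCΨCG, chr14:7617990-7618010, plus strand: tacaacgcGCTCGgagagaag
GCΨCG, chr17:39454370-39454390, minus strand: tacaacgcGCTCGgcgagaag
They had 142 of 3361 reads gapped (4.22%) on chromosome 14 and 138 of 4207 (3.28%) on chromosome 17. These were the only members besides the chromosome 4 repeat with another member within 100 nucleotides, and at the 4 sites the gap ratio stayed between 3.28 and 4.22%.

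Over all 54 pairs, Spearman's rho between copies was 0.88 for reads and 0.73 for the gap ratio, given as a description since pairs share libraries and some share members. The 54 include the chromosome 4 repeat, with a gap ratio of 53.3% at both sites. The gap ratios of 47 pairs were within 1.5 times of each other, and the median difference was 0.26 on the log2 scale. A difference beyond counting error was found in 5 pairs (Fisher's exact test, adjusted p under 0.05), and 14 pairs had an unadjusted p under 0.05. None of the 33 identical pairs was among the 5, and 4 of them had an unadjusted p under 0.05. The 33 include every pair within the largest group, the GCΨCC members on chromosomes 11 and 12. Of the 5 pairs, 3 belonged to the CCΨCT group with the high gap ratios. The other 2 had 1 mismatch each, on the 3′ side. A CCΨCT pair with a mismatch at +5 had 201 of 4361 reads gapped on chromosome 11 (4.61%) and 271 of 3637 on chromosome 16 (7.45%; Fisher's exact test, adjusted p = 2.32e-06). A GCΨCG pair with a mismatch at +4 had 292 of 4896 reads gapped on chromosome 5 (5.96%) and 86 of 2641 on chromosome 8 (3.26%; Fisher's exact test, adjusted p = 2.33e-06). The other pair with a mismatch at +4, the GCΨCG block on chromosomes 14 and 17, did not pass (Fisher's exact test, adjusted p = 0.134).

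**Figure D5:**
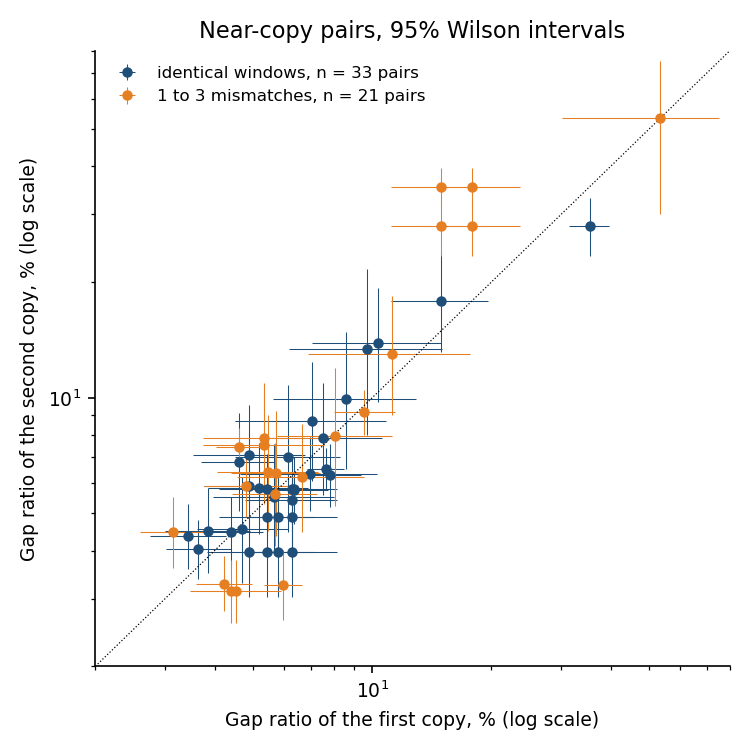
Gap ratios of the 54 near-copy pairs of members (both axes %, log scale; the order of copies in a pair follows chromosome and position), for 33 identical pairs (blue) and 21 pairs with 1 to 3 mismatches (orange). Bars are 95% Wilson intervals and the dotted line marks equal values. The orange point at 53.3% on both axes is the chromosome 4 repeat, whose windows overlap at 1 locus. Of the pairs, 47 lie within 1.5 times of the line of equality, and the 4 orange points above it between 28.0 and 35.4% compare copies of the CCΨCT group.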

How the data were processed

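Poly(A)-enriched RNA of W82 soybean shoots was sequenced by BID-seq in 2 input and 3 treated libraries. According to the methods of the study, the authors detected sites with the pseudoU-BIDseq pipeline on Glycine_max_v2.1, combined the replicates and filtered sites by a p-value. Aligner and filter thresholds are not given in the sources used here. The deposited read counts give the reads covering a site, without normalization; which libraries they cover is not given. The deposited gap ratio is gapped over total reads, but at 1 site without C on both sides it was 117%. The authors calibrated this ratio into the deposited Ψ fraction. The product of gap ratio and reads was whole at 100% of sites and was taken as the gapped reads. The tolerance was 0.001 plus an allowance for rounding of the ratio that grew with depth. A deposited expression table was not used, since its 2 value columns match input and treated libraries equally. Genes were not assigned to sites, the annotation at hand being of another assembly.

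Depth, gap ratio and Ψ fraction were compared over all 1347 sites by least squares with robust (HC3) errors, the latter pair with a restricted cubic spline (5 knots) of log10 depth, two-sided, with Benjamini-Hochberg adjustment and a threshold of 0.05. Bases at 16 outer positions and near-copy pairs were compared by Fisher's exact test. The fits were tested on simulated data. Sites are not biological replicates, so p-values describe this list only. Named sites were, by rule, the member with most gapped reads per context, the 5 highest fractions at 200 or more reads, the 3 highest and 3 lowest fractions, the 4 deepest identical pairs and members within 50 nucleotides of each other; the rule also asked for near copies in which 1 is a member and the other differs from it at −2 or +2, and none was found. Members, lists and tests were chosen with earlier results of these data known. Fits used statsmodels 0.14.6 and scipy 1.17.1 in Python 3.11.15, with numpy 2.4.6, matplotlib 3.10.9 and pandas 2.3.3.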

Additional observations from a re-analysis of the deposited data

How the results depend on the processing

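The alternatives were at least 50 or 200 reads, a minimum Ψ fraction of 20%, near-copy windows counted once, no other U from −2 to +2, no depth term, median or binomial regression, 20 sites per context, and other limits for near copies. With a minimum fraction of 20%, which selects on the outcome, members against GCΨCT sites had 0.14 in log10 reads (least squares, n = 179 and n = 96 sites, adjusted p = 0.0192) and −0.066 in log2 gap ratio, and against sites without C on both sides −0.0193 in log2 gap ratio and −3.48 points in Ψ fraction. The log10 reads differed from GCΨCT sites by 0.00322 with at least 50 reads and from the others by −0.0128 with at least 200. Without a depth term, the log2 gap ratio differed by 0.13 from GCΨCT sites (least squares, n = 276 and n = 235 sites, adjusted p = 0.0472) and by −0.64 from the others, and the fraction by −14.2 points from the others. That fraction difference was 1.92 points with at least 200 reads, 4.56 without another U, 2.90 in median regression and −1.83 without GCΨCG members, a setting chosen after seeing the data. Contexts called rose from 3 to 8 for the gap ratio with at least 50 reads, and fell from 19 for the fraction to 9 without another U and 12 with 20 sites per context, where fewer contexts were tested. Base tests called fell from 10 against GCΨCT sites to 3 with a minimum fraction of 20% and 6 with near copies counted once, and from 16 against the others to 6 without another U. Pairs called fell from 5 to 0 among identical windows, with 4 at an unadjusted p under 0.05 in Fisher's exact test. Elsewhere the cause was not tested.

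Low gap ratios were listed only at deep sites, so depth limits which sites are listed, and members with 20 reads or fewer have intervals too wide to order. Without another U no GCΨCT site is left, so that setting gave no value against them. It also removed every member with T at −2 or +2, and 87 of the 143 members left were GCΨCG. No paired analysis was possible because replicates were combined before deposit, and leaving out a library was not possible for the same reason.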
